A study of Homo sapiens with 6 samples.

Results

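Contacts of chromosome 11 with chromosomes 6 and 20 were examined in maps of HCC1954, a breast cancer cell line, beside those of SNU-C1, a colon cancer cell line, and OE33, an esophageal adenocarcinoma cell line. The members are all pairs of 40-kb bins with 1 bin on chromosome 11 and the other on chromosome 6 or 20. These are 19763104 of 2733951927 bin pairs of different chromosomes (0.723%), and 16697525 of them had usable bins at both ends. The chromosomes and the line were chosen from the contact values of these same maps, so the values below describe the maps and carry no test. The study mapped chromatin folding in 4 cancer cell lines by in situ Hi-C after digestion with MboI, and the 3 lines compared here have 1 map each, of 116359220 to 141120752 read pairs. Of SW480, a colon cancer cell line, the map without a replicate number was used, for coverage and for a look at the joins, since 0.217% of its read pairs lay between chromosomes. In SNU-C1, HCC1954 and OE33 this share was 14.8%, 19.6% and 36.6%. No line stands for normal tissue, so a feature of HCC1954 is described only against the other cancer lines.

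Hi-C joins DNA ends that lie close together in the nucleus, and the number of read pairs between positions falls steeply as their distance along the chromosome grows. Different chromosomes touch rarely and without sharp corners. A translocation places DNA of different chromosomes on 1 molecule, and the map then shows a bright corner at the breakpoint that fades away from it on the sides that were kept. The side on which contacts lie gives the orientation of the pieces, and a step in the number of read pairs per bin at the same place can mark a change in copy number.

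4 corners, named joins J1 to J4 here, met the criteria on these chromosomes in HCC1954. J4 did not fade from its corner, since its contacts were weakest nearest to the edges, as given below. The calls rest on the level required, and at the genome-wide mean at 400 kb in place of 1 Mb there were 0 joins for both pairs of chromosomes. At the mean at 2 Mb there were 2 for each pair, as at 1 Mb. With the level and the window changed together, to the mean at 5 Mb and 5 by 5 bins, added once the data had been seen, there were 3 with chromosome 6 and 7 with chromosome 20. MboI cuts at GATC, so read pairs arise near these sites. The sequences below are the 200 bases of GRCh37 upstream of gene starts on the kept sides of the corners, of the genes at J1 (DHCR7 and KHDRBS2), J2 (CD82 and POU3F2) and J4 (FAM168A and PTPRT), whose contacts are given below. They are shown because they mark the gene starts whose surroundings are compared below, in windows of 3 by 3 bins of 40 kb that are far wider than a promoter and overlap the corner bins at J1 and J2. Each is written 5′ to 3′ on the strand of its gene with GATC in capitals. They lie at chr11:71163915-71164114 (minus strand) for DHCR7, chr6:62996131-62996330 (minus) for KHDRBS2, chr11:44585777-44585976 (plus) for CD82, chr6:99282250-99282449 (plus) for POU3F2, chr11:73309235-73309434 (minus) for FAM168A and chr20:41818611-41818810 (minus) for PTPRT.
DHCR7: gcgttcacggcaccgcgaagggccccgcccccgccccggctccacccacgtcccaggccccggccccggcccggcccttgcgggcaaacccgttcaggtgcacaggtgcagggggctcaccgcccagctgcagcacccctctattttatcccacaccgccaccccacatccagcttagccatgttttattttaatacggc
KHDRBS2: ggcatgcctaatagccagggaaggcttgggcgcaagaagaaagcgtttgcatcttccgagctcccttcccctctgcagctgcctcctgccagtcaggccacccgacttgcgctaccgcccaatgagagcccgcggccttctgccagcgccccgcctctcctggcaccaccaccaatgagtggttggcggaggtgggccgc
CD82: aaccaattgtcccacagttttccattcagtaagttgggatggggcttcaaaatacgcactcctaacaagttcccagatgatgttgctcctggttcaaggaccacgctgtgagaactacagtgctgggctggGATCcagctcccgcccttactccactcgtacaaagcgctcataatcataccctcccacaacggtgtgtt
POU3F2: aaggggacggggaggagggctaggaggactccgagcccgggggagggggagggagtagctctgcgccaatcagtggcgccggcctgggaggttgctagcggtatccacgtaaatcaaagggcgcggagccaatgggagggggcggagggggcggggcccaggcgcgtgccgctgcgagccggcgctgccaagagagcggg
FAM168A: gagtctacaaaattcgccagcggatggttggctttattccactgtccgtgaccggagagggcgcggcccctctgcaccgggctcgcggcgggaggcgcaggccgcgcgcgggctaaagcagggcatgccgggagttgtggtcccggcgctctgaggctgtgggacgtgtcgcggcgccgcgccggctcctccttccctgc
PTPRT: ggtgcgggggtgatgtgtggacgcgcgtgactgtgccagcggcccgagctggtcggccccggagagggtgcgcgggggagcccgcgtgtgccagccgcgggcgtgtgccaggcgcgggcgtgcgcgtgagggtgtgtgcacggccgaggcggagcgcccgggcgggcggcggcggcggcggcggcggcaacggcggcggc
Only the CD82 promoter held a GATC, with 1 copy. Of 2912 protein-coding promoters of this length on chromosomes 6, 11 and 20, 28.2% held at least 1. The 40-kb bins at the 4 corners held 88 to 139 MboI sites, where the middle 90% of usable bins of chromosome 11 held 77 to 130. The bin with 139, on chromosome 11 at J4, was above that range.

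HCC1954 contacts between chromosome 11 and both partners were raised over broad, sharply bounded areas that SNU-C1 and OE33 lacked. Observed over expected contact (O/E) is the corrected contact frequency divided by the mean over all usable bin pairs of different chromosomes in the same map. For chromosomes 11 and 6 the mean O/E was 1.55 in HCC1954 (95% interval 1.55 to 1.56), 0.938 in SNU-C1 (0.932 to 0.943) and 1.01 in OE33 (1.01 to 1.01). For chromosomes 11 and 20 it was 2.65 in HCC1954 (2.64 to 2.67), 1.45 in SNU-C1 (1.44 to 1.46) and 1.36 in OE33 (1.36 to 1.37). HCC1954 had the highest mean for both pairs of chromosomes. By the median over 1-Mb block pairs it was lowest for chromosomes 11 and 20, with 1.203 against 1.287 in SNU-C1 and 1.248 in OE33, and highest for chromosomes 11 and 6, with 1.03 against 0.832 and 0.955. Intervals were taken as exact Poisson limits at 95% from the number of read pairs, which covers counting error alone, and the spread between cultures of a line is not known because each of the 3 lines had 1 map.

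A 1-Mb block pair was called specific to a line when its O/E reached 4 and, with 0.5 added to all values, 4 times that of whichever other line was higher. Over all pairs of chromosomes, 0.399% of 3269662 block pairs met this rule for HCC1954, 0.175% for SNU-C1 and 0.0707% for OE33. For chromosomes 11 and 6, HCC1954 had 532 specific block pairs of 20125 (2.64%), SNU-C1 had 12 and OE33 had 0. For chromosomes 11 and 20, HCC1954 had 591 of 7125 (8.29%), and SNU-C1 and OE33 had 0. These numbers ranked 6 and 5 among 253 chromosome pairs of HCC1954, and by share of block pairs tested, chromosomes 11 and 20 ranked 1 and chromosomes 11 and 6 ranked 15. With the mean of the same pair of chromosomes as the expected value, the counts of HCC1954 were 200 for chromosome 6 and 182 for chromosome 20. The rule used these same contacts, so nothing is read from the excess over the background.

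Chromosome 20 held 30.6% and chromosome 6 held 27.5% of the 1934 block pairs of chromosome 11 that were specific to HCC1954. The next partner of chromosome 11 by number was chromosome 18, with 309, which is 3.48% of the block pairs tested and a higher share than that of chromosome 6. In OE33 the contacts of chromosome 11 lay elsewhere, with 392 of 395 specific block pairs on chromosome 3. Calls rested on many read pairs, with a median of 34 per called block pair for chromosome 6 and 94 for chromosome 20, and 531 and 590 of the called block pairs held at least 10. At the threshold, the called block pair with the lowest ratio on chromosomes 11 and 20 had an O/E of 10.2 against 2.18 (ratio 4.0032) and the uncalled one with the highest had 7.49 against 1.5 (ratio 3.997). On chromosomes 11 and 6 these were 8.55 against 1.76 (ratio 4.011) and 5.33 against 0.957 (ratio 3.9989).

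**Figure D1:**
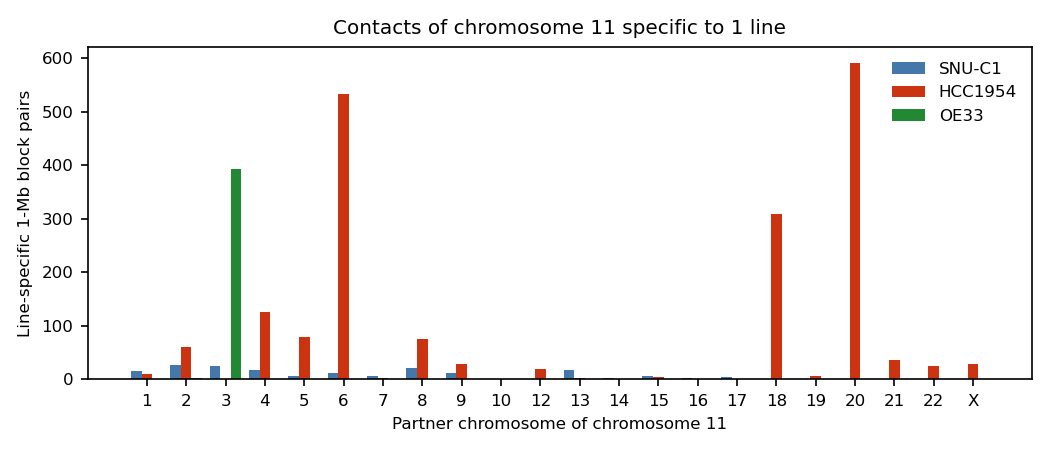
The bars give the number of 1-Mb block pairs of chromosome 11 specific to SNU-C1, HCC1954 or OE33, by partner chromosome. The highest bars of HCC1954 are chromosome 20 with 591 and chromosome 6 with 532, and the highest of OE33 is chromosome 3 with 392.

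A join was called where the contact frequency over 3 by 3 bins of different chromosomes reached the genome-wide mean within chromosomes at 1 Mb, rested on at least 10 read pairs and was at least 4 times that of both other lines, with peaks less than 2 Mb apart on both chromosomes counted as 1. Of 253 pairs of chromosomes, 15.4% held at least 1 join in HCC1954, while SNU-C1 had joins in 2.77% and OE33 in 2.37%. HCC1954 had 80 joins in all, 15 of them on chromosome 11, and 2 each with chromosomes 6 and 20. SNU-C1 and OE33 had 10 and 8 joins, and 0 of these joined chromosome 11 with 6 or 20. Among the 80 joins of HCC1954, J3 ranked 18, J1 23, J4 46 and J2 60 by contact frequency, so joins of other pairs of chromosomes ranked above all 4.

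**Figure D2:**
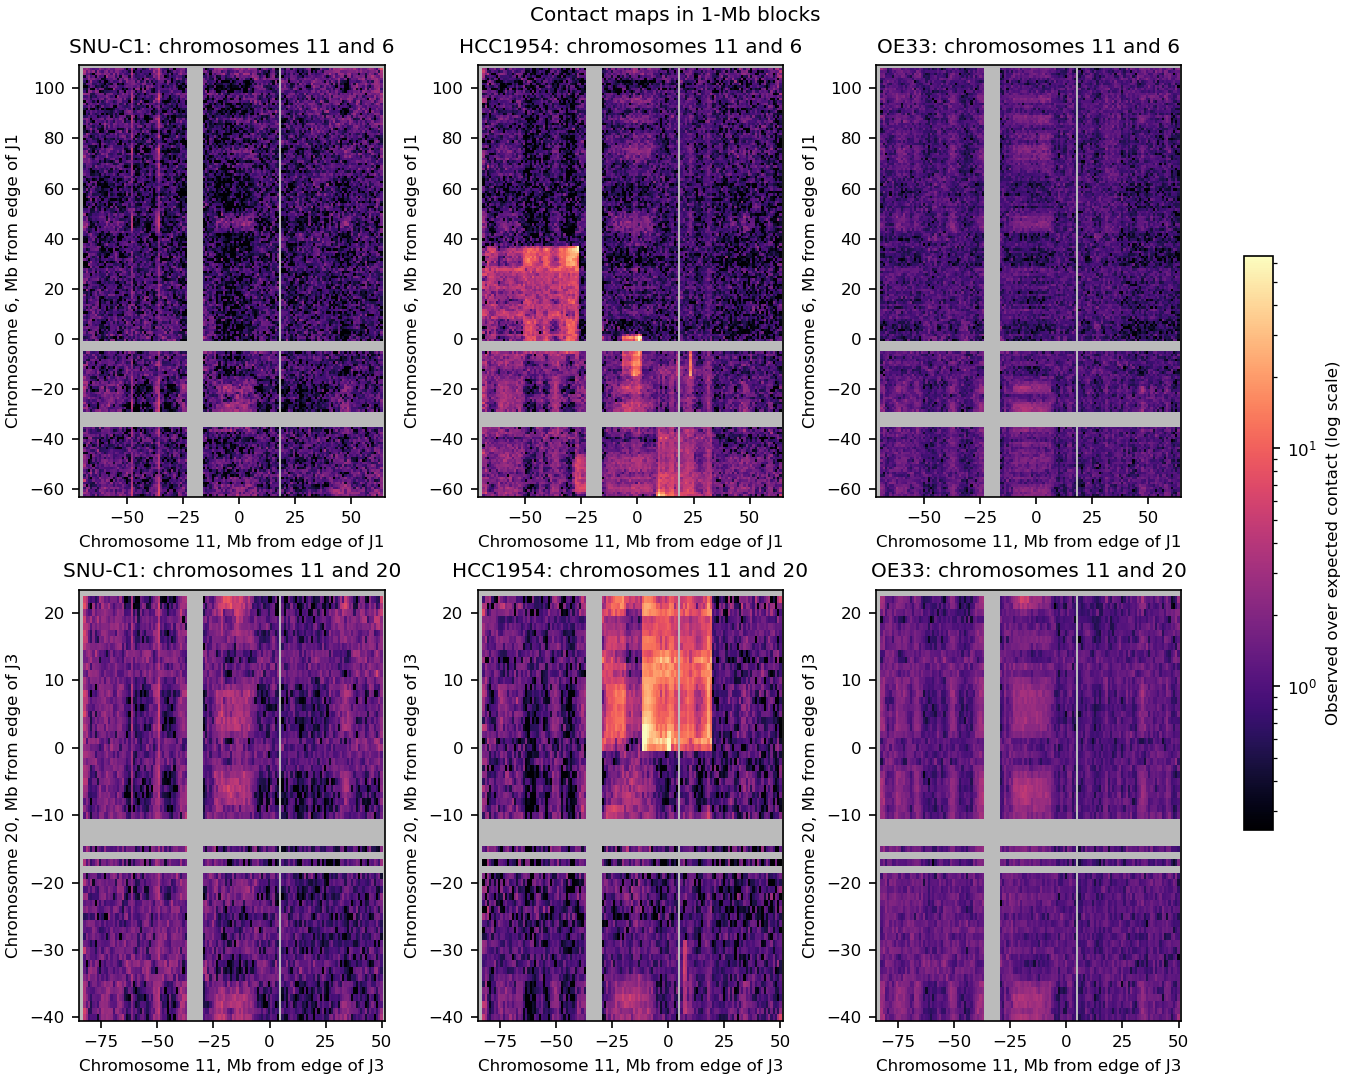
Each panel gives O/E in 1-Mb blocks on a log colour scale for chromosome 11 (horizontal) with chromosome 6 (upper row, Mb from the edges of J1) or chromosome 20 (lower row, Mb from the edges of J3), in SNU-C1, HCC1954 and OE33. Grey blocks had too few usable bins. The bright rectangles with sharp sides appear in HCC1954, where the highest block pairs reached 142 for chromosome 6 and 186 for chromosome 20.

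J1 joined 71.12 Mb of chromosome 11 with 62.84 Mb of chromosome 6, and contacts lay above both edges. The 3 by 3 bins at the corner had a contact frequency of 22.5, an O/E of 2073, and 162 read pairs in HCC1954 (95% interval 138 to 189), against 0 in SNU-C1 and 0 in OE33. In 200-kb blocks the highest O/E at this corner was 632 (532 to 744), and in 1-Mb blocks it was 142 (130 to 156), against 0 in SNU-C1 and 0.693 in OE33. Within 1 Mb of the edges the quadrant above both held 823 read pairs and had 6.54 times the contact frequency of the next quadrant. The other 3 quadrants were raised too, with 27, 66 and 163 read pairs and an O/E of 11.5 to 34.9. Above the edges, contacts on both chromosomes ended abruptly. Over 5 bins below 72.40 Mb of chromosome 11 there were 122 read pairs and above it 1, and over 5 bins below 64.12 Mb of chromosome 6 there were 127 and above it 0. These ends lay 1280 kb above the edge on each chromosome, while weaker contacts went on below the edges.

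Genes at J1 were DHCR7, which codes for the enzyme of the last step of cholesterol synthesis, NADSYN1, an NAD synthetase, and KRTAP5-7, a keratin-associated protein, all on the kept side of chromosome 11, at 19.2, 44.2 and 118 kb from the edge. The chromosome 6 edge lay inside KHDRBS2, a gene of 606 kb for an RNA-binding protein, on the minus strand, so the kept side held its start. The start sites of DHCR7 and KHDRBS2 were 43.9 and 156 kb from their edges, and the 3 by 3 bins around them, which overlap the corner itself, shared 60 read pairs in HCC1954 (45.8 to 77.2), an O/E of 904, against 0 in each of the other lines. A count of 0 allows up to 3 read pairs.

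J2 joined 44.64 Mb of chromosome 11 with 99.32 Mb of chromosome 6, and contacts lay below both edges, the opposite orientation to J1. The corner had a contact frequency of 13.7, an O/E of 1259 and 89 read pairs (71.5 to 110), against 0 in both other lines. The highest O/E was 401 in 200-kb blocks (317 to 499) and 70.7 in 1-Mb blocks (63 to 79). Within 1 Mb the quadrant below both edges held 603 read pairs, and the other 3 quadrants held 6, 2 and 1, so the corner was the cleaner of the pair on chromosome 6. CD82, a tetraspanin known as a metastasis suppressor, overlapped the chromosome 11 edge near its 3′ end, and FBXL4, a mitochondrial F-box protein, overlapped the chromosome 6 edge. Edges were placed at boundaries of 40-kb bins, and an end of each gene lay less than 1 bin from its edge. Whether either gene was cut is thus not resolved. POU3F2, a neural transcription factor, lay 32.7 kb from the edge on the kept side. The start sites of CD82 and POU3F2 were 54.0 and 37.6 kb from their edges and shared 67 read pairs in HCC1954 (51.9 to 85.1) and 0 in SNU-C1 and OE33. Their contact frequency, 10.6, was below the genome-wide mean of 118 at the summed distance of 91.6 kb.

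J3 joined 84.72 Mb of chromosome 11 with 40.52 Mb of chromosome 20, above both edges. It had the highest contact frequency of the 4 joins, 25.4, with an O/E of 2337 and 271 read pairs (240 to 305), against 0 in SNU-C1 and 1 in OE33. The highest O/E was 1361 in 200-kb blocks (1229 to 1503) and 152 in 1-Mb blocks (143 to 161). The quadrant above both edges held 2243 read pairs, and the next one, below the chromosome 11 edge, held 123. The chromosome 11 piece was 560 kb long. Over 5 bins below 85.28 Mb there were 548 read pairs with the joined side of chromosome 20, and 15 above it.

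J4 was called between 73.16 Mb of chromosome 11 and the same edge of chromosome 20, 40.52 Mb, again with contacts above both. Its corner had a contact frequency of 15.5, an O/E of 1433 and 122 read pairs (101 to 146), against 0 in both other lines. The highest O/E was 1121 in 200-kb blocks (983 to 1272) and 186 in 1-Mb blocks (175 to 198). Within 1 Mb, 1384 read pairs lay above both edges and 11, 8 and 4 in the other quadrants, and the highest quadrant had 150 times the contact frequency of the next.

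**Figure D3:**
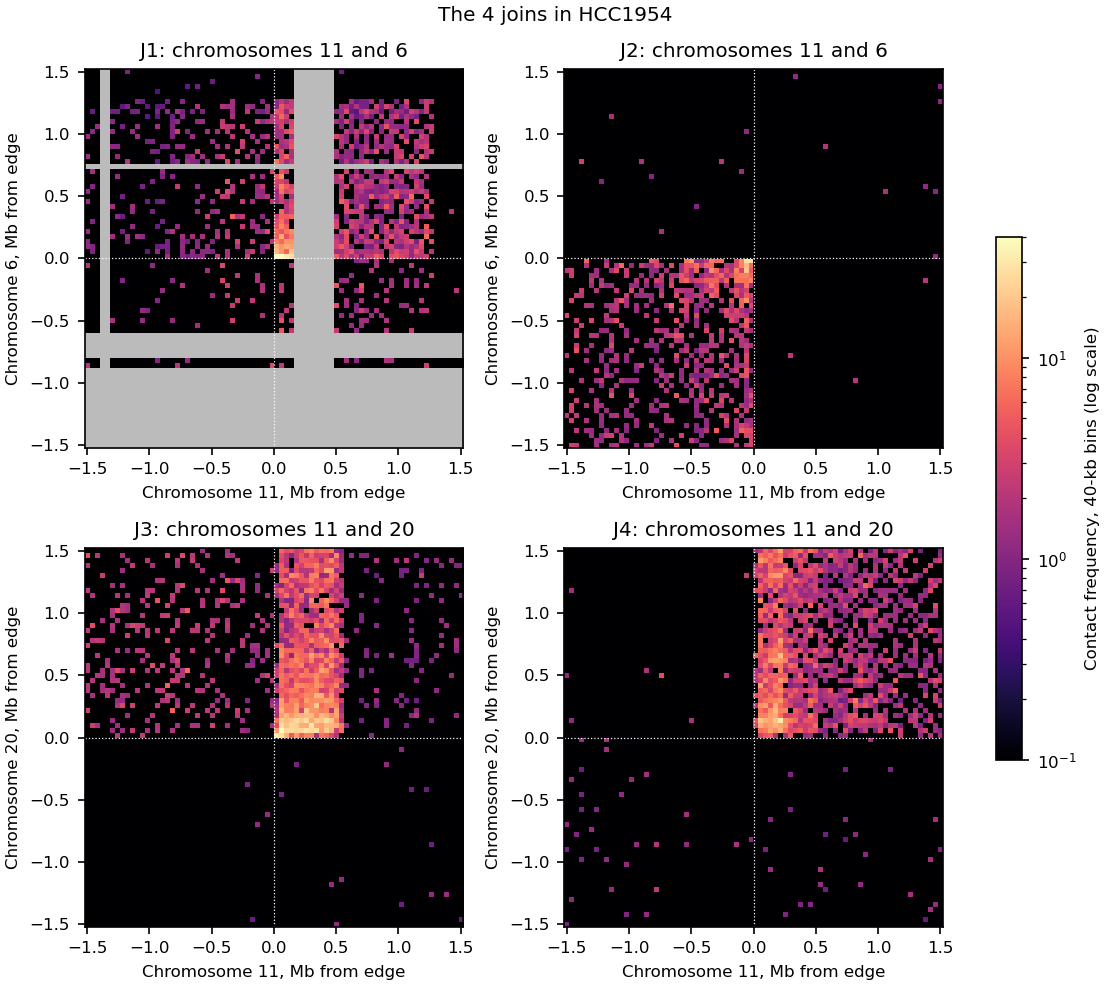
Contact frequency in HCC1954 is shown on a log colour scale for 40-kb bins within 1.52 Mb of both edges of each join, with dotted lines at the edges and unusable bins in grey. Contacts fill 1 corner at J2 and J4. At J3 they end 0.56 Mb above the chromosome 11 edge, and at J1 they end 1.28 Mb above both edges.

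The chromosome 11 ends of J3 and J4 also met each other in HCC1954. Between bins that start at 73.24 and 85.20 Mb of chromosome 11, 11.96 Mb apart on the reference, the contact frequency was 24.4, with 301 read pairs (268 to 337), 47.3 times the genome-wide mean at that distance. The contact frequency was 0 in SNU-C1 and 0.0815 in OE33. The edges of this contact were 73.16 Mb, with contacts above it, and 85.28 Mb, with contacts below it. The first is the edge of J4 and the second is the far end of the J3 piece. In HCC1954 the 560-kb stretch from 84.72 to 85.28 Mb thus had 1 end in contact with 40.52 Mb of chromosome 20 and the other in contact with 73.16 Mb of chromosome 11.

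The fall of contacts away from each join was compared with the mean within chromosomes of the same map at the same summed distance. At 40 to 160 kb, the contact frequency was 0.218 of that mean at J1 (182 read pairs), 0.126 at J2 (93) and 0.199 at J3 (198). At 1000 to 1960 kb it was 0.165, 0.113 and 0.224. Between these ranges the lowest shares of J1 and J2 were 0.135 and 0.0873, and the highest of J3 was 0.337. In finer steps J3 had a contact frequency of 33.1 against a mean of 262 at 40 kb and 13.9 against 30.5 at 400 kb, so its share also began low. J4 differed in that its contact frequency itself was lower nearest to the edges. In the finer steps J4 held 0 read pairs at 40 kb and 2 at 80 kb, and its contact frequency was highest at 360 kb, with 9.86. Its contact frequency was 4.93 at 40 to 160 kb (3.52 to 6.72) and 8.83 at 200 to 360 kb (7.79 to 9.98), or 0.0481 and 0.207 of the mean. With the 560 kb of the J3 piece added to the distance, the ratios were 0.292, 0.692, 0.45 and 0.443 from the nearest range to the farthest.

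**Figure D4:**
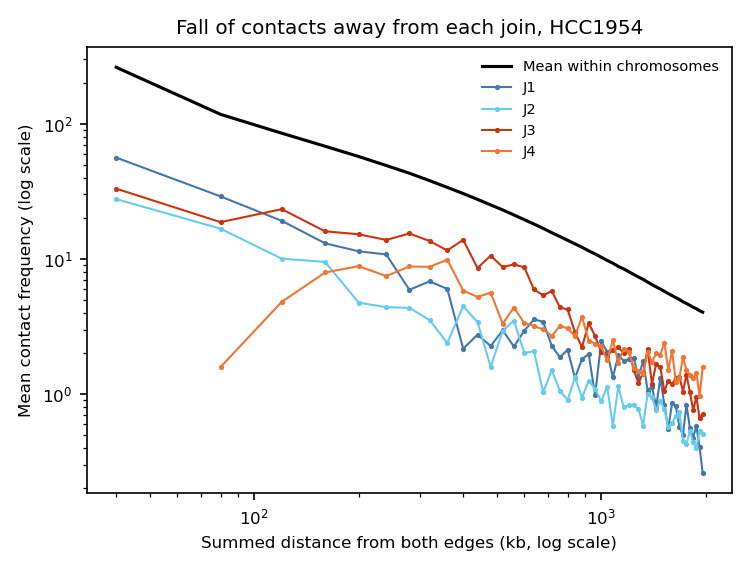
Mean contact frequency in HCC1954 is plotted against the summed distance from both edges of each join (both axes log), with the mean over all chromosomes of the same map in black. All 4 joins lie below the black line over the distances summed in the text, and J4 is at 4.93 at 40 to 160 kb and at 8.83 at 200 to 360 kb.

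DLG2, a synaptic scaffold gene of 2173 kb on the minus strand, spanned both the edge of J3 and the far end of its piece, so the whole 560-kb stretch lay inside the gene and did not hold its start. The start of DLG2 lay 619 kb from the edge, beyond the end of the piece, and the start sites of DLG2 and PTPRT shared 0 read pairs in all 3 lines. The edge of J4 lay inside FAM168A, and PLEKHB1, which codes for a pleckstrin homology protein, and RAB6A, a small GTPase of the Golgi, lay 197 and 227 kb from it on the kept side. No protein-coding gene overlapped the chromosome 20 corner. The nearest was PTPRT, a receptor tyrosine phosphatase, 181 kb away on the kept side, and CHD6, a chromatin remodeller, lay 273 kb away on the other side. The start sites of FAM168A and PTPRT shared 50 read pairs in HCC1954 (37.1 to 65.9), an O/E of 539, against 0 in SNU-C1 and OE33. Their contact frequency of 5.84 was close to the genome-wide mean of 6.21 at their summed distance of 1448 kb. This was high for the join, since all bin pairs at 1000 to 1960 kb from J4 had 0.279 of the mean. The distance also leaves out the 560-kb stretch.

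Away from the corners, 5 stretches on chromosome 6 and 3 on chromosome 20 are described. They were outlined after the maps were seen, so their values are a description. The 3 stretches with chromosome 20 made up 9.42% of usable bin pairs and 59.4% of read pairs in HCC1954, against 8.15% of read pairs in SNU-C1 and 8.40% in OE33. Outside them the mean O/E of HCC1954 was 1.47, beside 1.47 in SNU-C1 and 1.38 in OE33. The 5 stretches with chromosome 6 made up 4.51% of usable bin pairs and 17.2% of read pairs in HCC1954. Outside them its mean O/E was 1.30, beside 0.937 and 1.01, so contacts with chromosome 6 were also raised outside these stretches. That remainder includes the corner of J1 and the rest of the area below both edges of J2. It thus does not show a rise over chromosome 6 in general.

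The stretch behind J2 ran over 20 to 44.64 Mb of chromosome 11 and 70 to 99.32 Mb of chromosome 6, with a mean O/E of 6.57 in HCC1954 (6.48 to 6.67), 0.943 in SNU-C1 and 0.956 in OE33. It stopped at both edges. Above 99.32 Mb of chromosome 6, over a strip of equal size, the O/E of HCC1954 was 0.608 (0.583 to 0.634), below the 0.857 and 0.987 of the other lines. Above 44.64 Mb of chromosome 11, up to 48.40 Mb, it was 0.678 (0.610 to 0.753). Over the wider area below both edges, contacts fell slowly, from an O/E of 23.3 within 10 Mb of summed distance to 5.58 at 20 to 30 Mb and, beyond the stretch, to 2.07 at 70 to 80 Mb, and the other lines stayed at 0.753 to 1.02 over these ranges. Without the iterative correction the mean of this stretch was 3.85 in place of 6.57, and coverage of its chromosome 11 part in HCC1954 was low, at 0.647 of the autosomal median.

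The stretch behind J4 was the largest on chromosome 20. It ran from 73.20 to 104.00 Mb of chromosome 11 and from 40.56 to 60 Mb of chromosome 20, with a mean O/E of 14.7 in HCC1954 (14.6 to 14.9), 1.26 in SNU-C1 and 1.15 in OE33, on 75040 read pairs in HCC1954. The contacts stopped at 3 sides. Over 5 Mb on each side of the lower chromosome 11 edge, the O/E with chromosome 20 was 26.8 above and 2.27 below, where SNU-C1 had 2.36 and OE33 1.77. At the upper edge, 104.00 Mb, it was 12.5 below and 0.904 above. At the chromosome 20 edge it was 19 above and 1.14 below. Counted along the reference, the distance range of 0 to 10 Mb from J4 had an O/E of 42.4 and that of 40 to 50 Mb still had 8.54, against 0.931 to 2.08 over all ranges in the other lines. The range of 10 to 20 Mb, with 18.0, also holds the corner of J3. Between bins that start at 65.48 and 98.84 Mb of chromosome 11, HCC1954 had 444 read pairs and 182 times the mean at their distance. These contacts lay below 65.56 Mb and above 98.80 Mb, and the second edge is inside this stretch. Whether the stretch is 1 piece was not tested.

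The 6 smaller stretches were outlined in the same way, and a step was measured on both chromosomes for the stretches at 94.12 and 91.84 Mb, on 1 chromosome for 3 others and on neither for the stretch at 43 to 48 Mb. On chromosome 6, 94.12 to 95 Mb of chromosome 11 met 47.92 to 57.36 Mb with an O/E of 16.8 (16.2 to 17.4), and 69 to 72.36 Mb met 48 to 57 Mb with 14.7 (14.3 to 15.1). The contact within chromosome 11 between 70.60 and 94.16 Mb, with 893 read pairs and 146 times the mean at its distance, linked the same pieces, below 70.68 Mb and above 94.04 Mb. Further, 79.80 to 88 Mb met the first 10 Mb of chromosome 6 with 8.32 (8.09 to 8.55), and 43 to 48 Mb met 2 to 15 Mb with 5.24 (5.01 to 5.47). On chromosome 20, 91.84 to 92.28 Mb met 1.16 to 11.84 Mb with 13.5 (12.6 to 14.4), a strip of 440 kb, and 55 to 62 Mb met 40.56 to 50 Mb with 7.64 (7.38 to 7.90). In SNU-C1 and OE33 these 6 stretches had values of 0.588 to 1.51. The correction changed these values unequally. Without it, the stretch at 94.12 Mb had an O/E of 55.1, the one at 69 Mb 27 and the one at 91.84 Mb 26.2. Their coverage on chromosome 11 in HCC1954 was 4.21, 1.38 and 2.44 times the autosomal median. The stretch at 79.80 Mb had 9.59 without it, at a coverage of 1.45, and those at 43 and 55 Mb had 4.70 and 7.64. Coverage on chromosome 6 was 1.98 for the stretch at 69 Mb and 1.40 for that at 79.80 Mb. The part of coverage in these changes was not tested.

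Of 125 usable 1-Mb blocks of chromosome 11, 71 had specific contacts with chromosome 6, 39 with chromosome 20, 21 with both and 36 with neither. A number close to 21 would hold both if contacts with the 2 partners were spread over the blocks independently, so nothing is read from the overlap. These classes depend on the block size, since in 200-kb blocks, with no minimum of read pairs, 123.8 Mb of chromosome 11 met both partners. Below the centromere the contacts were with chromosome 6 alone, in runs of 7, 5 and 30 Mb that started at 2, 10 and 16 Mb. The blocks with both partners lay at 79 to 89 Mb and 90 to 99 Mb, apart from single blocks that start at 64 Mb and 1 Mb below 104.00 Mb. In 79 to 89 Mb there were 202 specific block pairs with chromosome 20 and 53 with chromosome 6. From 55 to 62 Mb the only partner of the 2 was chromosome 20, with 36. Median coverage in HCC1954 was 1.57 over blocks with both partners, 1.37 over those with chromosome 20 only, 0.764 over those with chromosome 6 only and 0.792 over those with neither. These medians were 0.913 to 0.959 in SNU-C1 and 1.04 to 1.22 in SW480. In OE33 blocks with chromosome 20 only had 1.35, close to HCC1954, those with chromosome 6 only had 1.21, and those with both had 1.04. The part of coverage in the contacts was not tested.

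**Figure D5:**
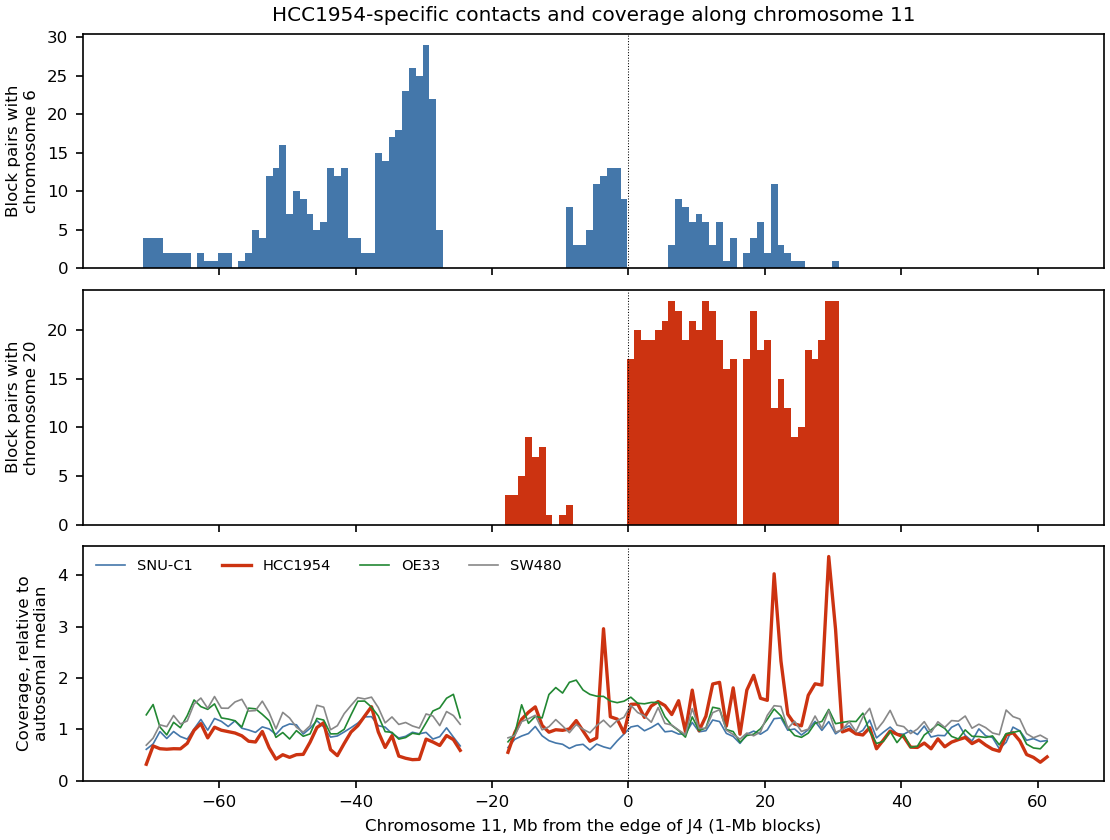
The upper panels count specific 1-Mb block pairs of HCC1954 with chromosomes 6 and 20 along chromosome 11, as distance from the edge of J4 in Mb. The lower panel gives median coverage of each block relative to the autosomal median in 4 lines. Contacts with chromosome 20 fill the 31 Mb above the edge, where coverage of HCC1954 has peaks that the other lines lack.

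Averaged over the whole chromosomes, contacts between 6 and 20 themselves were not higher in HCC1954 than in both other lines. The mean O/E of this pair was 1.07 for HCC1954, 1.23 for SNU-C1 and 1.18 for OE33, with 0, 3 and 0 specific block pairs of 9177 and 0 joins in HCC1954. In 500-kb blocks, with no minimum of read pairs, HCC1954 had 39 specific block pairs. The share over all pairs of chromosomes at this block size was not computed, so nothing is read from this number. Between 79.80 and 88 Mb, chromosome 11 had an O/E of 8.32 with the first 10 Mb of chromosome 6 and of 16.6 (16.4 to 16.8) with 40.56 to 60 Mb of chromosome 20. Those parts of chromosomes 6 and 20 touched each other with an O/E of 1.54 in HCC1954 (1.48 to 1.6), between 1.42 in OE33 (1.39 to 1.46) and 2.38 in SNU-C1 (2.31 to 2.46). At the joined ends, the 1-Mb pieces of chromosome 6 at J1 and of chromosome 20 shared 5 read pairs (1.62 to 11.7), an O/E of 1.32. The chromosome 11 edges of J1 and J4 are 2.04 Mb apart on the reference, and the contact frequency of 0.0143 was 0.00376 of the genome-wide mean at that distance. Contacts at J1 ended at 72.4 Mb, though, and those at J4 lay above 73.16 Mb, so they do not follow the reference between these edges. The windows also reach 1 Mb beyond the edges. The value of 0.00376 thus cannot show whether chromosomes 6 and 20 share a molecule. The chromosome 6 end of J2 also shared 5 read pairs with chromosome 20 (O/E 1.66), and without the iterative correction these O/E values were 0.771 at J1 and 0.740 at J2, below the expected value. In the J2 window the O/E was 0.733 in SNU-C1 and 0.656 in OE33, both lower than in HCC1954. In the J1 window it was 1.64 in SNU-C1, higher than in HCC1954, and 1.18 in OE33, lower than in HCC1954. SNU-C1 and OE33 had 5 to 13 read pairs in these windows. In SW480, 0 read pairs lay in the 1-Mb quadrants of J1 to J4, in a map that holds almost no pairs between chromosomes.

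Coverage, which counts read pairs between a bin and all other bins and divides by the autosomal median of the line, was compared over 480 kb on both sides of the 7 edges. In SW480 almost all of these pairs lay within chromosomes, so its coverage does not count the same kinds of pairs as in the other lines. The 3 highest ratios of joined to other side in HCC1954, given next, were each above the ratios of the other 3 lines. How often positions away from the joins show such a step in HCC1954 was not tested. Nothing about the joins is thus read from the number of edges with a step. At 73.16 Mb of chromosome 11, coverage of HCC1954 was 1.5 on the joined side and 0.870 on the other, a ratio of 1.72, against 1.07 to 1.20 in the other lines. At 62.84 Mb of chromosome 6 the ratio was 1.52, against 1.09 to 1.10. At 84.72 Mb of chromosome 11 it was 1.40, against 0.893 to 1.02. The edges of J2 gave 1.20 on chromosome 11, where SW480 had 1.28, and 0.985 on chromosome 6. At 71.12 Mb the ratio was 1.22 on only 4 usable bins of the joined side. At 40.52 Mb of chromosome 20 it was 0.844, and 0.727 to 0.771 in the other lines, so coverage there was lower on the joined side in all 4 lines. Coverage does not separate copies of the rearranged chromosome from unchanged copies.

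Cancer genes in blocks with these contacts were looked up from a list of 80 on chromosomes 6, 11 and 20. Of these, 41 (51.2%) started in 1-Mb blocks with specific contacts, beside 51.6% of all usable blocks of the 3 chromosomes, so the listed genes were not more frequent there than blocks in general. By chromosome these were 22 of 29 on chromosome 11, 4 of 24 on chromosome 6 and 15 of 27 on chromosome 20, against 71.2%, 39.1% and 43.9% of blocks. The 17 genes described are a choice among the listed genes made after their values were seen. Coverage is given below as the median over 1 Mb around the start of the gene.

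On chromosome 11, blocks with genes of the cyclin D1 region met chromosome 6. No join with chromosome 6 was called in the block of CCND1. Joins with other chromosomes were, as at 69.04 Mb with chromosome 8 (1164 read pairs) and at 69.56 Mb with chromosome 5 (592). Which partner goes with the coverage of these genes was not tested. CCND1, which codes for the cell cycle regulator cyclin D1, had 12 specific block pairs with chromosome 6, and the highest, with 48 to 49 Mb, reached an O/E of 24.7 on 437 read pairs (397 to 480), with 0.729 as the higher value of SNU-C1 and OE33. Its coverage in HCC1954 was 3.13, against 0.686 in SNU-C1, 1.64 in OE33 and 1.18 in SW480. FGF19, FGF4, FGF3, which are growth factor genes, and ANO1, a chloride channel gene, share the same block, and their coverage in HCC1954 was 2.96, 2.65, 2.56 and 1.96. CTTN, which codes for the actin-binding protein cortactin, lay 0.875 Mb from the edge of J1 on the other side, with an O/E of 29.7 with 63 to 64 Mb of chromosome 6, against at most 1.35.

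Above the edge of J4, PAK1, a kinase gene, and GAB2, an adaptor gene, had 20 and 21 specific block pairs with chromosome 20 and the highest O/E of 34.0 and 34.5. YAP1, a transcriptional coactivator of the Hippo pathway, and BIRC2 and BIRC3, which code for inhibitors of apoptosis, had 19, 23 and 23. The block of BIRC2 and BIRC3 had an O/E of 29.4 with 42 to 43 Mb of chromosome 20 on 500 read pairs (457 to 546), against at most 1.61. Coverage in HCC1954 was 4.02 at YAP1 and 4.41 at BIRC2, against 1.16 to 1.43 in the other lines. MRE11, a DNA double-strand break repair gene, was in contact with both partners, in 11 block pairs with chromosome 6 and 12 with chromosome 20, and its coverage was 3.40, against 1.03 to 1.36. Of the 17 listed genes named here, BIRC2 and BIRC3 had the highest coverage, and YAP1 and MRE11 came next.

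On chromosome 20, PTPRT and MYBL2, a cell cycle transcription factor gene, lay nearest to the edge and had the highest O/E of 186 and 148 with 73 to 74 Mb of chromosome 11, against at most 1.44 and 3.03. Their starts lay 1.30 and 1.78 Mb from the edge. ZNF217, a zinc finger gene often gained in breast cancer, had 29 specific block pairs with chromosome 11 and an O/E of 24.2 with the block that starts at 102 Mb, and AURKA, a mitotic kinase gene, had 24 and 19.6 with 84 to 85 Mb. Coverage in HCC1954 was 0.666 at PTPRT, 1.24 at ZNF217 and 2.67 at AURKA. In the same order it was 2.13, 2.64 and 1.97 in SNU-C1 and 1.58, 2.03 and 2.02 in OE33. In SW480 it was 1.24, 1.66 and 1.28. HCC1954 was thus the lowest line at PTPRT and ZNF217 and the highest at AURKA. TOP1, a topoisomerase gene 0.863 Mb below the edge, had 0 specific block pairs, and its highest O/E was 4.43 against 1.61.

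Gene-rich and gene-poor blocks both carried the contacts. Between the first 44 Mb of chromosome 11 and 63 to 99 Mb of chromosome 6, the median O/E of HCC1954 was 4.46 over 756 pairs of gene-poor blocks, 4.05 over 126 pairs of gene-rich blocks and 3.23 over 630 pairs of 1 of each, with blocks split at the median number of gene starts per Mb of their chromosome. In the blocks behind J4, from 74 Mb of chromosome 11 and from 41 to 63 Mb of chromosome 20, it was 9.92 over 190 gene-poor pairs, 15 over 108 gene-rich pairs and 8.30 over 318 pairs of 1 of each. SNU-C1 had 1.24, 1.5 and 0.896 and OE33 had 1.07, 1.5 and 0.969 in the same blocks, so the order with chromosome 20 was alike in the 3 lines at very different levels. In the chromosome 6 blocks the order was not alike. OE33 was highest over gene-rich pairs, with 1.09 against 0.921 over gene-poor pairs, and SNU-C1 had 0.896 and 0.923.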

How the data were processed

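In situ Hi-C libraries of 4 cell lines were analysed from 6 deposited maps. The authors used BWA-MEM for alignment to hg19 and Picard for duplicates, and deposited the contact signal of 40-kb bin pairs after iterative correction by in-house pipelines. The methods say that Hi-C was made in duplicate. For SNU-C1, HCC1954 and OE33, 1 map each was analysed, and whether it pools the duplicates, like the versions of the tools, is not given in the sources read. The 23 chromosome lengths of GRCh37 equalled those in the files. Bin factors were fitted over 45 iterations to pairs at least 5 Mb apart, so that values up to 20 read pairs came within 0.02 of whole numbers. This recovered read pairs for 100.0% of values tested in SNU-C1, HCC1954 and OE33. Bins with coverage of at least 0.25 of the median in all 4 lines were usable (65229), and a 1-Mb block needed 60% usable bins. Expected contact was the mean between chromosomes. With 1 map per line no test was run. Intervals are exact 95% Poisson intervals. Edges were placed at the largest step in read pairs around each join. Named genes were those that overlap the 3 bins of a corner, or else the nearest on each side, and listed cancer genes, up to 30 in all. Genes came from GENCODE v44 lifted to GRCh37. The members and the gene list were chosen with earlier results of these data known. Alternatives covered the expected value, block size, added constant, ratio, bin filter, correction and join level. The 2 numbered SW480 maps were not used in any value given here. Calculations were tested on simulated data. The work was done in Python 3.11.15 with pandas 2.3.3, numpy 2.4.6, matplotlib 3.10.9 and scipy 1.17.1.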

Additional observations from a re-analysis of the deposited data

How the results depend on the processing

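Among alternative values of the main results, 56 stayed within the tolerance and 23 moved past it. The tolerance was 1.5-fold for a count and the 95% counting interval for a mean O/E, and the cause of each move was not tested. No paired analysis was possible because each compared line had 1 map. The 532 specific block pairs of chromosomes 11 and 6 became 200 with the expected value of the same pair of chromosomes, 2259 in 500-kb blocks, 128 in 2-Mb blocks, 328 with 1 added to O/E, 907 at a ratio of at least 3 and 348 with bins of at least 0.5 of the median coverage. The 591 of chromosomes 11 and 20 became 182 with the expected value of the same pair, 2118 in 500-kb blocks and 164 in 2-Mb blocks, and the 0 of chromosomes 6 and 20 became 39 in 500-kb blocks. Block counts at other sizes count other units and, like those at 1 Mb, had no minimum of read pairs. The mean O/E of chromosomes 11 and 6 was 1.46 without correction, 1.48 with the stricter bins and 1.03 as the median over blocks. For chromosomes 11 and 20 these were 2.87, 2.96 and 1.20, and by the median the order of the lines turned, since SNU-C1 had 1.287 and OE33 1.248. For 6 and 20 it was 1.13 without correction and 0.973 as the median. At the mean at 400 kb as the level, both pairs had 0 joins, as given beside the joins. With 5 by 5 bins, chromosomes 11 and 6 had 1. With 5 by 5 bins and the mean at 5 Mb, chromosomes 11 and 20 had 7. In 200-kb blocks, 123.8 Mb of chromosome 11 met both partners in place of 21. Depth limits single 40-kb bin pairs, and 1 map per line leaves the spread between cultures unknown.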
